A study of Homo sapiens with 12 samples.

Results

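H3K27ac and H3K9ac, a pair of acetylation marks on the tail of histone H3, were compared with each other across the genome and across protein-coding genes in KBM-7 cells. The members were every called interval that the authors deposited under either mark, with overlapping or adjoining intervals of a mark joined into regions. This gave 3368 H3K27ac regions and 19505 H3K9ac regions, 22873 of the 317369 regions in the 8 distinct sets of the series. A protein-coding gene counted as carrying a mark when its span plus 5 kb on each side held at least 1 bp of a region. By this rule 12587 of 19970 genes carried at least 1 of the marks and are called acetylated below.

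The series mapped 9 histone modifications once each in untreated KBM-7 cells. This human line, near-haploid and from chronic myeloid leukaemia, carries the BCR-ABL1 fusion kinase and was grown in IMDM with fetal calf serum. Formaldehyde-fixed chromatin was sheared to about 300 bp and precipitated with an Active Motif antibody for H3K27ac and a CST antibody for H3K9ac. By the labels these libraries go with different inputs, so the mark, its antibody and its input cannot be told apart. H3K4me1, H3K4me2, H3K36me3 and H4K16ac go with the input of H3K27ac, and H3K4me3 and H3K79me2 with that of H3K9ac. H3K27me3 has its own input. Each mark had 1 library, so no difference could be set against replicate error and no p-value was computed. The deposited intervals carry no count, score or signal, so the depth is unknown, and 95% Wilson intervals (given in parentheses after shares) cover counting error only.

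Acetylation neutralises the positive charge of histone lysines and is found at promoters and enhancers in use. H3K27ac is laid down mainly by CBP and p300 and is widely used to tell active enhancers from primed ones, which carry H3K4me1 alone. It occupies the same lysine as H3K27me3, the Polycomb mark, so a single tail cannot hold both. H3K9ac is laid down mainly by GCN5 and PCAF and is best known from active promoters, where H3K4me3 also lies.

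The promoters of 6 genes show the kinds of sequence found under the marks. They run from 250 bases before to 50 bases after the transcription start, in RefSeq's GRCh38.p14 sequence, 5′ to 3′ on the strand of the gene. Capitals mark the letters TTCNNNGAA, the palindrome that STAT factors bind, TATAAA, the TATA box, and GGGCGG, the GC box of SP factors, on either strand. CISH, a feedback inhibitor of cytokine signalling, and ETV6, an ETS factor of blood stem cells, were among the genes with most H3K27ac. LY86, a partner of a leukocyte Toll-like receptor homologue, and ARHGDIB, a gene expressed in leukocytes, had both marks over the whole window. CRYBB1, a lens crystallin gene, had H3K27ac alone over its whole window, and MRPL12, a mitochondrial ribosomal protein gene, had H3K9ac alone.
CISH (chr3:50611725-50612024, minus strand): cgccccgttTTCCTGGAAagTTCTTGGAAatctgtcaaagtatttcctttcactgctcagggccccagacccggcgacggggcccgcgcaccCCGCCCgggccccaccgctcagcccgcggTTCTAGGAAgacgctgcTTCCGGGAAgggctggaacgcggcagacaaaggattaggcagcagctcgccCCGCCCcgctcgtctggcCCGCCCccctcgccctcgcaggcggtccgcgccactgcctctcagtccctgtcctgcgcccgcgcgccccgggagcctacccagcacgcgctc
ETV6 (chr12:11649424-11649723, plus strand): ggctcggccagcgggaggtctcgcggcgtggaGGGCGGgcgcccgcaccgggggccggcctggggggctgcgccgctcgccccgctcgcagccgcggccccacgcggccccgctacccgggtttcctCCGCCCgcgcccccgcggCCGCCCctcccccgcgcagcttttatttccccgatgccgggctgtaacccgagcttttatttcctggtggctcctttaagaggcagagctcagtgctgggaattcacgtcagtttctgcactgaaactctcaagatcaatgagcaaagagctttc
LY86 (chr6:6588470-6588769, plus strand): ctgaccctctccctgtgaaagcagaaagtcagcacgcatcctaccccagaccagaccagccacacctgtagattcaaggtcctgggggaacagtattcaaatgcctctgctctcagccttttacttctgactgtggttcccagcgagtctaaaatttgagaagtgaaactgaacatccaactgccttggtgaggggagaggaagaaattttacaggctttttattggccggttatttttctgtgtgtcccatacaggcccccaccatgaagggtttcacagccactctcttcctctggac
ARHGDIB (chr12:14948847-14949146, minus strand): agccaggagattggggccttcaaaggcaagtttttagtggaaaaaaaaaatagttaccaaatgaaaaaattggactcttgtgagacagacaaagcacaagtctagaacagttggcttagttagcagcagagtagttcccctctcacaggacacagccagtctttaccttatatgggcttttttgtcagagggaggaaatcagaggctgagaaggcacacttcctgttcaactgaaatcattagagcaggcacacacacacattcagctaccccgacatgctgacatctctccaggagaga
CRYBB1 (chr22:26617978-26618277, minus strand): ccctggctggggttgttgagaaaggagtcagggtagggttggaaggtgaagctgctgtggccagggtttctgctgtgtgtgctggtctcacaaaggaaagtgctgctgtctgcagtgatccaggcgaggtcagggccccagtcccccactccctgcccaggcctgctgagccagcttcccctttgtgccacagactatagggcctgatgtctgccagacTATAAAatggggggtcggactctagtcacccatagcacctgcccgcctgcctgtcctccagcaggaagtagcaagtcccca
MRPL12 (chr17:81703117-81703416, plus strand): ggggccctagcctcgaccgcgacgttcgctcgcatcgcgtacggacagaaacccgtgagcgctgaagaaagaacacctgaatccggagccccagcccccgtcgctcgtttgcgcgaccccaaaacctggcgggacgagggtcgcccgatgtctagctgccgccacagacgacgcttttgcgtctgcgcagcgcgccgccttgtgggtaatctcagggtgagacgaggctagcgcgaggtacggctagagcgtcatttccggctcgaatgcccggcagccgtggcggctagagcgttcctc

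The CISH window held 33 CpG dinucleotides and 7 matches, 4 of them to the STAT letters at -241, -230, -129 and -112 from the start. It had 226 bp of H3K9ac and 0 bp of H3K27ac, and its widest H3K27ac region, 3750 bp, began 0.124 kb downstream of the start. The ETV6 window, fully under both marks, also held 33 CpG and had 3 GC boxes. The LY86 and ARHGDIB windows held 3 and 1 CpG and none of the letters searched. The CRYBB1 window held 3 CpG and 1 match, TATAAA at -31. The MRPL12 window held 40 CpG and no match. A match describes the letters only, and a window without one says nothing about the factor.

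Over the 15811 genes whose start is in the RefSeq promoter table, which holds none on chromosome 8, promoter windows with both marks were poorer in CpG than those with H3K9ac alone. Both marks touched 376 windows (2.38%), H3K27ac alone 14, H3K9ac alone 7401 (46.8%) and neither 8020. These classes go by the window of 300 bases only. Within 1 kb of the start, 962 of the 15811 genes had both marks. A window with H3K9ac alone can therefore have H3K27ac close by, as that of CISH does. The contrasts in CpG and letters are between windows, not between genes with and without H3K27ac near the start. The median CpG count per 300 bases was 20 with both marks, 6.50 with H3K27ac alone, 28 with H3K9ac alone, 10 with neither and 22 over all windows. TATAAA was in 10.1% (7.45 to 13.6) of windows with both marks, against 4.19% (3.76 to 4.67) with H3K9ac alone and 9.64% of all. The GC box was in 53.7% (48.7 to 58.7) with both marks, against 76.4% (75.5 to 77.4) with H3K9ac alone and 58.5% of all. The STAT letters differed by less than the counting intervals, at 6.91% (4.76 to 9.94) with both marks, 5.96% (5.44 to 6.52) with H3K9ac alone and 6.98% of all.

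H3K27ac was the smaller set and lay mostly inside the larger one. H3K9ac overlapped 2598 of the 3368 H3K27ac regions, or 77.1% (75.7 to 78.5), whereas H3K27ac overlapped 2387 of the 19505 H3K9ac regions, or 12.2% (11.8 to 12.7). The marks shared 1.75 Mb, which is 71.9% of the 2.43 Mb under H3K27ac and 7.73% of the 22.6 Mb under H3K9ac. Of the shared H3K27ac regions, 1843 (70.9%) lay wholly within H3K9ac, and of the shared H3K9ac regions, 452 (18.9%) lay wholly within H3K27ac. The first share rests on the size of the H3K9ac set. With the 3368 widest H3K9ac regions alone, as many as there are of H3K27ac, it was 35.2%, and 27% of those wide regions had H3K27ac.

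H3K9ac regions that held H3K27ac were wider than those that did not. Their median width was 1350 bp (quartiles 750 and 2550), against 900 bp (450 and 1500) without H3K27ac. When the H3K9ac regions were split by width into 10 classes of equal number, the share with H3K27ac was 5.43% (4.51 to 6.53) among regions of 300 bp and 35.2% (33.1 to 37.3) among regions of 2250 to 16950 bp. A wider region has more room for an overlap, and the part of this in the trend was not tested. H3K4me1, the methylation typical of enhancers, went with a second difference. In the narrowest class, 12% of H3K9ac regions with H3K4me1 held H3K27ac, against 1.76% of those without it. The rise was not steady with H3K4me1, where the share was 31.2% in the fifth class, between 21.4% and 27.5% in the 4 classes above it, and 35.9% in the widest. Without H3K4me1 it was higher in each wider class, at 4.76% in the fifth and 34.6% in the widest.

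**Figure D1:**
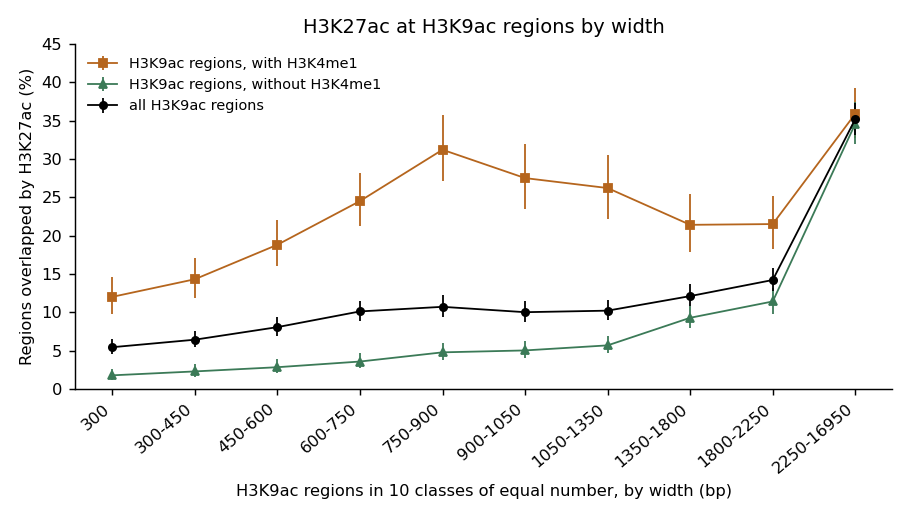
Share of H3K9ac regions overlapped by at least 1 bp of H3K27ac (vertical axis, %) in 10 classes of equal number by H3K9ac width (horizontal axis, bp), for regions with H3K4me1, without H3K4me1 and for all regions; bars are Wilson 95% intervals of 1 library. The lines with and without H3K4me1 stand at 12% and 1.76% in the narrowest class and meet at 35.9% and 34.6% in the widest.

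H3K27ac was also more frequent on H3K9ac away from promoters. Among H3K9ac regions with H3K4me1 and no H3K4me3, 25.6% (24.1 to 27) held H3K27ac, against 8.58% (8.03 to 9.16) of those with H3K4me3 and no H3K4me1. The regions with H3K4me1 and no H3K4me3 were the narrower ones, with a median of 600 bp against 1200 bp. With both methylations the share was 19.3% (17.7 to 21.0), and with neither 5.86% (5.20 to 6.61). By distance, 9.09% of H3K9ac regions within 1 kb of a listed start held H3K27ac, 11.2% of those at 1 to 10 kb and 17.2% of those beyond 10 kb. Starts were listed for 15811 of the 19970 genes. A region counted as beyond 10 kb can therefore lie at the start of a gene without a listed one.

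The 770 H3K27ac regions without H3K9ac had the other marks of enhancers rather than those of promoters. H3K4me1 lay on 37.0% (35.2 to 38.9) of the 2598 regions with H3K9ac and on 80.1% (77.2 to 82.8) of those without it. H3K4me3 lay on 49.2% (47.3 to 51.2) of regions with H3K9ac and 1.69% (0.989 to 2.87) of regions without it. H3K79me2, which follows transcribed gene starts, lay on 40.9% with H3K9ac and 10.5% without. H3K4me2 was common to both classes, at 98.2% with H3K9ac and 92.3% without. A listed start lay within 1 kb of 914 of 2467 regions with H3K9ac (37.0%) and of 39 of 744 without it (5.24%). Beyond 10 kb from any listed start lay 44.8% with and 73.9% without, which can include starts of genes without a listed one. The median width was 600 bp with H3K9ac and 450 bp without it. H3K4me1 shares its input with H3K27ac, and H3K4me3 and H3K79me2 share theirs with H3K9ac. The part of the input in these differences was not tested.

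Polycomb chromatin was almost absent from regions where the acetylations coincided. H3K27me3 touched 1 of the 2598 H3K27ac regions with H3K9ac (0.0385%), against 19 of the 770 without it (2.47%). Of H3K9ac regions, 3 of 2387 with H3K27ac had H3K27me3 (0.126%), against 685 of 17118 without it (4.0%). For H3K9ac regions, H3K4me1 lay on 55.4% with H3K27ac and 25.7% without, while H3K4me3 lay on 52.5% with and 61.3% without.

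**Figure D2:**
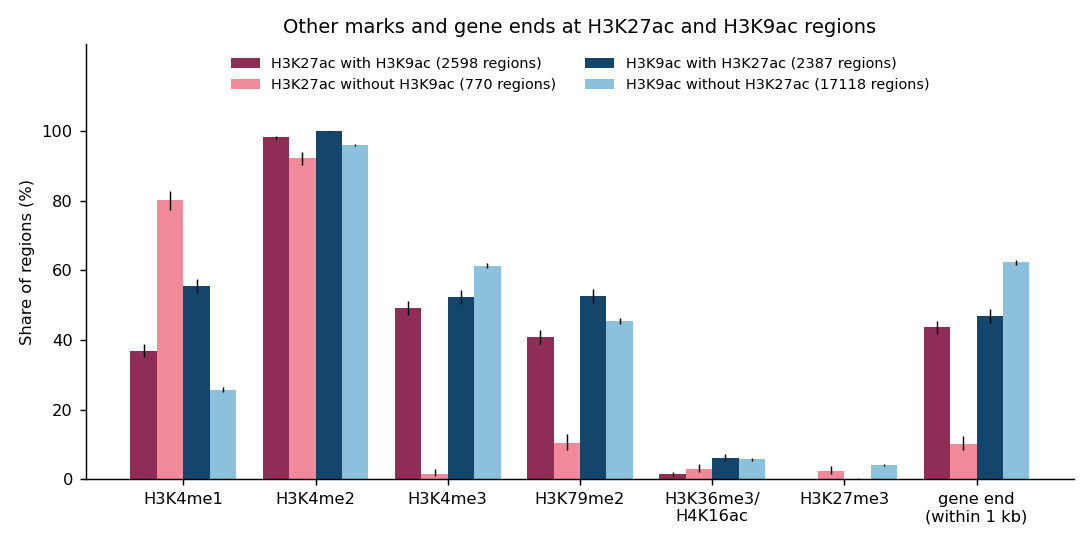
Share of regions (vertical axis, %) that overlap each other mark or lie within 1 kb of an annotated gene end, for H3K27ac regions with and without H3K9ac and H3K9ac regions with and without H3K27ac; bars are Wilson 95% intervals of 1 library. H3K27ac without H3K9ac has the tallest H3K4me1 bar, at 80.1%, and an H3K4me3 bar of 1.69%.

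Many H3K27ac regions without H3K9ac lay close to it. Of the 770, 55 (7.14%) directly adjoined an H3K9ac region, 255 (33.1%) lay within 500 bp, and 441 (57.3%) within 5000 bp. The median gap was 2550 bp, and 77 regions (10%) were more than 100000 bp away. In genic terms, 480 (62.3%) lay in the window of a gene that also had H3K9ac and 28 (3.64%) in the window of a gene that did not, while 265 (34.4%) lay in no window of a protein-coding gene. The widest of those in a gene window, 2100 bp at chr20:31674901-31677000, lay 47.0 kb downstream of the start of BCL2L1, which encodes the survival factor BCL-XL, and had 900 bp of H3K4me1 and 2100 bp of H3K4me2.

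By gene, H3K27ac without H3K9ac was rare. Both marks were found at 2152 genes, which is 10.8% of the 19970 (10.4 to 11.2), H3K27ac only at 29 (0.145%, 0.101 to 0.208), H3K9ac only at 10406 (52.1%, 51.4 to 52.8) and neither at 7383 (37.0%). Of the acetylated genes, 17.3% (16.7 to 18.0) had H3K27ac, which is the background for the gene families below. The small second class rests on the breadth of the H3K9ac calls. Against the 3368 widest H3K9ac regions alone, 801 genes had H3K27ac only, 1380 had both and 2850 had H3K9ac only. Median gene length was 29.8 kb with both marks, 58.8 kb with H3K27ac only, 29.5 kb with H3K9ac only and 15.1 kb with neither, so genes with both marks and genes with H3K9ac only differed little in length.

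Genes with both marks carried more of the other active marks than genes with H3K9ac only, and less H3K27me3. H3K79me2 was at 90.8% of genes with both marks and 71.3% of genes with H3K9ac only, H3K4me1 at 92.2% and 73.0%, and H3K4me3 at 94.1% and 90.3%. H3K27me3 was at 12.3% (10.9 to 13.7) of genes with both marks, against 32.1% (31.2 to 33.0) of genes with H3K9ac only and 71.1% of genes with neither. The median H3K9ac cover was 3411 bp in genes with both marks and 1800 bp in genes with H3K9ac only. In 1928 of the 2152 genes (89.6%) the marks overlapped at some place in the window, and in 224 they lay apart.

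Around the transcription start, H3K27ac dipped at the start itself and was higher on both sides of it. In the 1750 genes with both marks and a listed start, H3K27ac covered at most 22.5% of genes upstream, at 500 to 400 bp before the start. It covered 9.95% in the last 100 bp before the start, 11.8% in the first 100 bp after it, and 20.8% at 300 to 400 bp after it. H3K9ac was highest at 300 to 400 bp after the start, with 82.7% of these genes covered, and covered 67% in the last 100 bp before it. In the 8560 genes with H3K9ac only, the same places held H3K9ac in 78.6% and 57.3%. H3K9ac also had a shallower dip upstream. In genes with both marks it was 59.6% at 500 to 400 bp before the start and 56.2% at 300 to 200 bp. In genes with H3K9ac only it was 45.6% at 400 to 300 bp before the start and 43.9% at 300 to 200 bp. Within 1 kb of the start, 966 of the 1750 genes with both marks (55.2%) had H3K27ac and 89.4% had H3K9ac, so in many of them H3K27ac lay elsewhere in the window.

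**Figure D3:**
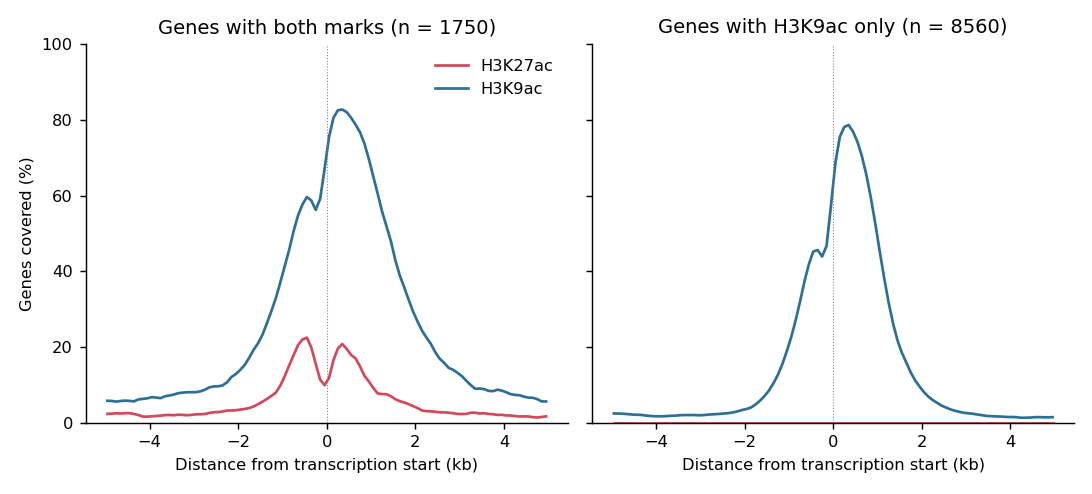
Share of genes covered (vertical axis, %) in steps of 100 bp by distance from the transcription start (horizontal axis, kb, upstream to the left), for genes with both marks and genes with H3K9ac only. H3K27ac has a peak on each side of the start, 22.5% upstream and 20.8% downstream. H3K9ac is highest downstream, at 82.7% and 78.6%, and has a shallower dip upstream of the start.

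Within genes that had both marks, H3K27ac usually covered the smaller stretch. Its cover was a median 21.9% of the H3K9ac cover (quartiles 13.3% and 36.8%). It was the smaller in 2080 genes, equal in 16 and the larger in 56. ETV6 had the most H3K27ac, 15150 bp in 13 regions, beside 15750 bp of H3K9ac in 15. LIPC, the gene of hepatic lipase, had 12300 bp of H3K27ac and 12000 bp of H3K9ac, and no H3K4me3. CISH had 10762 and 11962 bp. ERG, another ETS factor of blood stem cells, had 10200 and 15150 bp, with its widest H3K27ac region 182 kb downstream of the start listed. RHEX, a regulator of erythroid cell expansion, had 10500 and 13050 bp, and EGFL7, a secreted factor of endothelial and blood progenitor cells, 8250 and 12450 bp, each with its widest H3K27ac region over the start. The 10 genes with most H3K27ac also included ATP8B4, a phospholipid-transporting ATPase gene, at 9300 and 12000 bp, and ZMYND8, a reader of acetylated histones, at 8199 and 11400 bp.

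LY86 stood farthest to the other side, with 10782 bp of H3K27ac against 8400 bp of H3K9ac, a difference of 2382 bp. PHF19, a Polycomb accessory subunit, had 7800 and 6900 bp, and ABCA9, a transporter gene, 7500 and 6450 bp without H3K4me3. TMIGD3, an immunoglobulin-domain gene, had 3450 and 1800 bp, and the adenosine receptor gene ADORA3 inside its span had 1500 and 450 bp of the same stretch. MAX, the partner of MYC, had 3900 and 3000 bp, and the overlapping gene FNTB, a farnesyltransferase subunit, had 3900 and 2700 bp. DUSP3, a phosphatase of MAP kinases, had 1800 and 750 bp. In PTPRC, the pan-leukocyte antigen CD45, the balance was the more usual one, at 1500 and 5850 bp, and in GATA2 it was 1350 and 10350 bp.

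**Figure D4:**
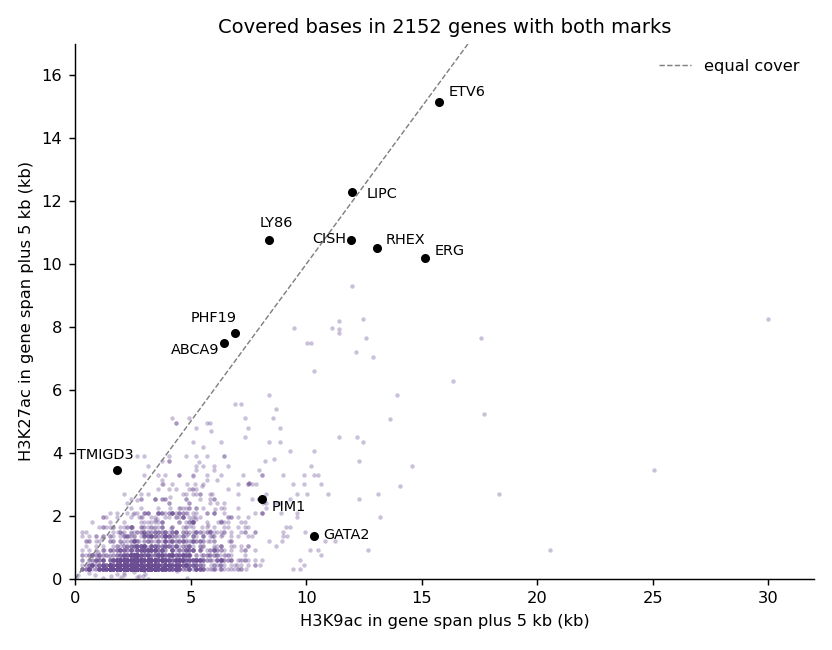
Bases under H3K27ac (vertical axis, kb) and under H3K9ac (horizontal axis, kb) in the span plus 5 kb of each of the 2152 genes with both marks, 1 point a gene; the dashed line is equal cover and named genes are black. Most points lie below the line, while LY86, at 10782 and 8400 bp, lies above it.

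The 29 genes with H3K27ac only differed in the methylation around them. H3K4me1 without H3K27me3 was at 11, H3K27me3 without H3K4me1 at 10, and both at 8. H3K4me3 was at 1 of them. In 15 genes the H3K27ac was 300 bp or less. CSF1R, the receptor for macrophage colony-stimulating factor (chr5:150053295-150113365), had 900 bp of H3K27ac at chr5:150081901-150082800, 30.6 kb downstream of its start, with 14550 bp of H3K4me1 and 0 bp of H3K27me3 in its window. CASS4, an adaptor of focal adhesion signalling, had 1050 bp with 16050 bp of H3K4me1. RAB7B, a GTPase of endosome traffic, had 600 bp over its start, with 7350 bp of H3K4me1. C1QTNF4 and FAM180B, which are neighbours, shared 1 region of 750 bp.

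Others had H3K27me3 somewhere in the gene window, which need not be at the H3K27ac itself. ADAM32, a metalloprotease-family gene expressed in testis, had 1050 bp of H3K27ac beside 95500 bp of H3K27me3, with 0 bp of H3K4me1 and H3K4me2. SGCZ, a sarcoglycan gene, had 600 bp beside 30500 bp of H3K27me3. ACSM1, a mitochondrial acyl-CoA synthetase gene, had the most H3K27ac of the class, 1350 bp, and held 900 bp of H3K4me1 and 26266 bp of H3K27me3 in the same window. Of the 28 distinct H3K27ac regions in windows of such genes that lay apart from all H3K9ac, 13 overlapped H3K4me1, 9 overlapped H3K27me3 and 2 lay within 1 kb of a start. At 10 of the 29 genes H3K27ac reached 600 bp or more.

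Genes with H3K9ac only included some with wide cover. MEIS1, the HOX partner of leukaemia stem cells, had 9900 bp of H3K9ac in 5 regions and 0 bp of H3K27ac, with 5700 bp of H3K4me3. PCNA, the replication clamp, had 7950 bp, AMD1, an enzyme of polyamine synthesis, 8400 bp, SOD2, mitochondrial superoxide dismutase, 8100 bp, and the histone demethylase-family gene JMJD1C 8100 bp. The splicing regulator HNRNPF had 7950 bp. The widest H3K9ac region without H3K27ac, 6600 bp at chr12:54277951-54284550, lay over CBX5, which encodes heterochromatin protein HP1 alpha, and HNRNPA1. GPHN, the gene of gephyrin, had the most, 13950 bp in 12 regions over a long span that also held 102000 bp of H3K27me3.

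Gene families differed in how many of their acetylated members had H3K27ac, set against 17.3% of all acetylated genes. Of 25 actin and leukocyte cytoskeleton genes, all acetylated, 19 (76%, 56.6 to 88.5) had H3K27ac. Among them WIPF1, an actin polymerisation factor, had 2700 bp of H3K27ac and 10050 bp of H3K9ac, and LCP1, the leukocyte bundling protein plastin, 1950 and 3450 bp. ACTG1, cytoplasmic gamma actin, and CAPG, an actin capping protein, had H3K9ac only, at 5400 and 1650 bp.

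Of 14 targets of STAT5, the transcription factor activated by BCR-ABL1, 10 (71.4%, 45.4 to 88.3) had H3K27ac. Besides CISH, these included SOCS2, a feedback inhibitor, with 6300 bp of H3K27ac and 16350 bp of H3K9ac, the survival kinase PIM1 with 2550 and 8100 bp, and BCL2L1 with 2550 and 2850 bp. PIM2, PIM3, CCND2 and ID1 had H3K9ac only. Of 24 haematopoietic progenitor factors, 17 (70.8%, 50.8 to 85.1) had H3K27ac, among them LMO2 with 4800 and 7500 bp and LYL1 with 4350 and 8850 bp, which join in a transcription complex of blood stem cells. MEIS1, FLI1, TCF3 and CEBPA were among the 7 with H3K9ac only. The wider JAK, STAT and SOCS family stood at 7 of 18 (38.9%), with STAT3 at 2400 and 4050 bp and JAK2 at 0 and 2550 bp.

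Replication-dependent histone genes, which are expressed in S phase from clusters, had H3K27ac at 38 of 55 acetylated members (69.1%, 56 to 79.7). H2BC7 had 3738 bp of H3K27ac and 8223 bp of H3K9ac, and H4C5, a neighbour whose window shares the same 2850 bp region, had 3591 and 5241 bp. The family held 42 distinct H3K27ac regions. Neighbours in a cluster can share a region, as H2BC7 and H4C5 do, so they are not separate cases. The chromosome 1 genes H2AC18, H4C15, H2AC25 and H2BC26 had H3K9ac only. Other histone genes of that chromosome, H2BC21, H2AC20 and H2AC21, had both marks, each at 2550 and 3450 bp. Short-read placement between such near-identical copies is uncertain. Of 21 acetylated genes of heterogeneous nuclear ribonucleoproteins, which bind pre-mRNA, 12 (57.1%, 36.5 to 75.5) had H3K27ac, with HNRNPA2B1 at 1500 and 7800 bp. When H3K27ac had to lie within the gene span itself, that count was 5 of 21 (23.8%), against 12.6% of all acetylated genes by the same rule.

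H3K27ac lay within 1 kb of the start in 968 of all 15811 genes with a listed start, and H3K9ac in 9028. H3K27ac lay there in 33 of the 64 histone genes and 10 of the 23 ribonucleoprotein genes, where H3K9ac lay in 40 and 19. For haematopoietic progenitor factors it lay there in 6 of 20, against 19 with H3K9ac, for STAT5 targets in 4 of 10, against 10 with H3K9ac, and for actin and leukocyte cytoskeleton genes in 10 of 23, against 22 with H3K9ac. The differences between these families were not tested.

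Further families stood above the background by a smaller margin. ETS factors had H3K27ac at 9 of 21 (42.9%), Krueppel-like and SP factors at 7 of 17 (41.2%), glycolysis enzymes at 7 of 17 (41.2%) and histone lysine methyltransferases and demethylases at 14 of 40 (35%, 22.1 to 50.5). Among glycolysis enzymes, PKM had 3750 bp of H3K27ac and 4050 bp of H3K9ac and ENO1 1350 and 5850 bp, while HK2, TPI1, ENO2 and GPI were among the 10 with H3K9ac only. Of 49 acetylated CD antigens, 20 (40.8%, 28.2 to 54.8) had H3K27ac, with the progenitor antigen CD34 at 3600 and 5550 bp and CD69, an early activation antigen, at 1951 and 13201 bp. HOX genes stood at 8 of 23 (34.8%), with 10 distinct H3K27ac regions in the family. As with the histones, neighbours in a cluster can share a region, so these genes may not be separate cases. The widest H3K9ac region, 16950 bp at chr7:27154801-27171750, lay over HOXA7, HOXA9 and HOXA10 and held 3300 bp of H3K27ac.

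Other families had H3K9ac in most members and H3K27ac in fewer of them than all acetylated genes or about as many. Respiratory chain and ATP synthase genes had H3K9ac in 78 of 85 and H3K27ac in 5 (6.41% of the acetylated, 2.77 to 14.1). MCM and replication origin factors, acetylated in 37 of 37, had H3K27ac in 3 (8.11%, 2.80 to 21.3), proteasome subunits in 4 of 45 (8.89%, 3.51 to 20.7) and mitochondrial ribosomal proteins in 8 of 73 (11%, 5.66 to 20.2). These last 3 intervals hold the 17.3% of all acetylated genes. Zinc finger ZNF genes stood at 32 of 385 (8.31%, 5.95 to 11.5). NDUFV2, a complex I subunit, had 600 bp of H3K27ac beside 7500 bp of H3K9ac, COX7B 0 and 6659 bp, and MCM4, a helicase subunit, 0 and 4350 bp. Cytosolic ribosomal proteins were near the background, at 17 of 77 (22.1%, 14.3 to 32.5), with RPL4 at 1350 and 6300 bp and RPLP0 at 0 and 5100 bp.

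H3K9ac was broader in the families described first than in those with little H3K27ac, with exceptions. Median H3K9ac cover per marked gene was 1950 bp over all genes. It was 7125 bp for haematopoietic progenitor factors, 4200 bp for ribonucleoproteins, 3600 bp for STAT5 targets, 3427 bp for actin and cytoskeleton genes and 3300 bp for histones. It was 1350 bp for ZNF genes, 1800 bp for respiratory chain genes, 1950 bp for mitochondrial ribosomal proteins and 2100 bp for MCM and proteasome genes. The part of breadth in the H3K27ac shares was not tested. Among the exceptions, it was 3000 bp for cytosolic ribosomal proteins. For AP-1 and ATF factors, of which 2 of 20 (10%) had H3K27ac, it was 2700 bp. It was 1500 bp for CD antigens, with H3K27ac at 40.8%.

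**Figure D5:**
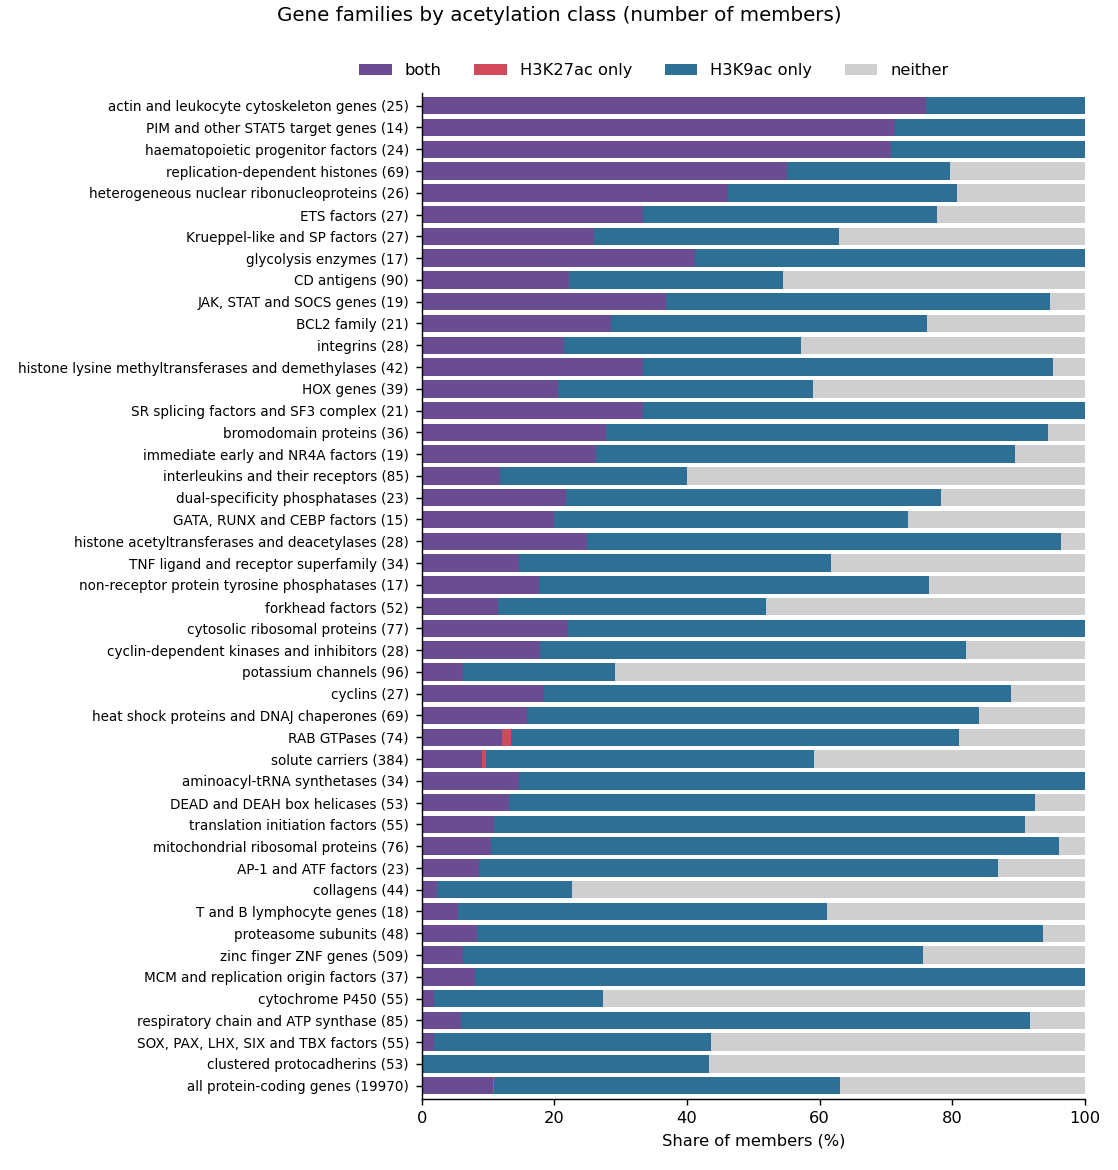
Share of the members of each gene family (horizontal axis, %) in the 4 acetylation classes, with the number of members in parentheses and all 19970 protein-coding genes in the last row; each bar is a count in 1 library per mark, without error. Actin and leukocyte cytoskeleton genes have both marks in 19 of 25 and respiratory chain genes in 5 of 85.

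Genes of mature blood lineages and of other tissues varied. Over all protein-coding genes, 63.0% were acetylated, and 17.3% of the acetylated genes had H3K27ac. The intervals below for erythroid and megakaryocytic, lymphocyte, chemokine and developmental factor genes hold this 17.3%. Of 20 granulocyte and monocyte genes 13 had neither mark. Of the 7 others, 4 (57.1%, 25 to 84.2) had H3K27ac, and this interval lies above the 17.3%. Among these 4, TYROBP, an adaptor of immune receptors, had 1448 bp of H3K27ac and 2048 bp of H3K9ac, CSF2RA 750 and 1050 bp, and MPO 300 and 300 bp. Of 18 erythroid and megakaryocytic genes 12 had neither mark. The 6 others all had H3K9ac only (0 to 39.0% for H3K27ac), with TFRC, the transferrin receptor, at 2250 bp and KLF1, the erythroid Krueppel-like factor, at 1950 bp. Of 18 T and B lymphocyte genes 11 were acetylated, near the share of all genes, and 1 of the 11 (9.09%, 1.62 to 37.7) had H3K27ac: CD79A, a subunit of the B cell receptor, at 600 bp beside 2850 bp of H3K9ac. Chemokines and their receptors had H3K9ac in 9 of 63 and H3K27ac in 0 (0 to 29.9% of the 9). Clustered protocadherins had H3K9ac in 23 of 53 and H3K27ac in 0 (0 to 14.3% of the 23). Within 1 kb of the start, H3K9ac lay in 2 of the 47 protocadherin genes with a listed start. Neighbours in a cluster can share a region, so the 23 may not be separate cases and the interval may be too narrow. Developmental factors of the SOX, PAX, LHX, TBX and related families had H3K27ac in 1 of 24 acetylated members (4.17%, 0.739 to 20.2). This was SIX3, at 300 bp beside 7050 bp of H3K9ac. Olfactory receptors had H3K9ac in 2 of 392 and no H3K27ac.

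The labelled cell type was checked against marker lists. Over all protein-coding genes, 63.0% were acetylated and 10.8% had both marks. All 12 genes of the haematopoietic progenitor or myeloid leukaemia list were acetylated, 10 with both marks, and KIT and ANPEP with H3K9ac only, at 1650 and 1050 bp. Acetylation was found at 4 of 8 epithelial genes, where KRT8 had both marks, at 600 and 2100 bp, and at 1 of 8 hepatocyte genes, APOA1, at 300 and 1050 bp. It was found at 2 of 8 neuronal genes and 1 of 8 fibroblast genes, all with H3K9ac only. EPCAM, ALB, SNAP25 and COL1A1 had neither mark.

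H3K27ac also varied by chromosome. On chromosome 8, which is disomic in this line, 101 of 448 genes with H3K9ac also had H3K27ac (22.5%, 18.9 to 26.6). In the disomic part of chromosome 15, at 61 to 90 Mb, it was 47 of 182 (25.8%, 20 to 32.6), against 33 of 221 (14.9%, 10.8 to 20.2) on the rest of that chromosome. Outside chromosome 8 and that part, with the rest of chromosome 15 included, it was 16.8%. Chromosomes 6, 12 and X reached 21.6%, 21.6% and 21.4% without this, and chromosome 9 had the lowest share, 10.2%. The part of copy number in these shares was not tested.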

How the data were processed

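The authors deposited 1 list of called intervals, each with a start and an end position and the name of a mark, and with no count, score or signal, so the depth per library is unknown. Per the submitters' processing notes, cutadapt, Bowtie2, MACS and the build GRCh38 were used; versions, thresholds and the input behind each call are absent from the sources used here. H3K27ac and H3K9ac intervals lie on a grid of 150 bp. The intervals under H3K36me3 and H4K16ac are the same ones, taken as 1 set, and 1 label that belongs to no sample was left aside.

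Positions were brought to a count from 1, and overlapping or adjoining intervals of a mark were joined (Python 3.11.15, numpy 2.4.6, pandas 2.3.3). Chromosomes 1 to 22 and X were used. Gene spans and promoter windows came from RefSeq tables of GRCh38.p14; starts of genes outside the promoter table, among them all on chromosome 8, were not used here. Regions overlap when they share at least 1 bp, a gene window is the span plus 5 kb, and shares have Wilson 95% intervals. The class functions were tested on simulated data, where 1500 of 1500 windows were classed as planted.

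The members, the 55 gene families, marker lists and motifs were chosen with earlier results of these data known. Named genes are the 10 with most H3K27ac, or the largest excess of H3K27ac, among genes with both marks, the 10 with most cover in each single class, up to 4 members per class of a family, every member of a class of 4 or fewer, and the cell markers; the text gives a selection. The promoters and widest regions shown, the gene CRYBB1 and genes named only at those regions were chosen after their values were seen. Alternatives were other joining rules, gene windows, overlaps and width limits, isolated genes, and leaving out the disomic stretches. Results for 1 further gene family are not reported here.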

Additional observations from a re-analysis of the deposited data

How the results depend on the processing

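Each mark had 1 library and no score, so neither replicate error nor a stricter peak threshold could be had, and width stood in for strength. The share of H3K27ac regions with H3K9ac (77.1%) was 79.3% with gaps of up to 500 bp joined, 78.8% with touching regions counted (added after seeing the data), 63.0% for regions at or above the median width and 35.2% against the widest H3K9ac regions. The share of H3K9ac regions with H3K27ac (12.2%) was 13.5% with gaps joined, 11.5% with intervals as deposited, 10.5% by median width and 27% for the widest. Alternatives for H3K4me1 and H3K4me3 were added after seeing the data. On H3K27ac regions with H3K9ac, H3K4me1 was 39.2% with gaps joined and 34.9% by median width, and H3K4me3 52.1% and 60.6%. Without H3K9ac, H3K4me1 was 86.7% by median width and H3K4me3 0.979% with touching regions counted. Genes with both marks (2152) numbered 1265 with windows around the annotated ends, 962 within 1 kb of the 15811 starts (added after seeing the data), 513 of 6853 genes without a neighbour within 10 kb, 1380 against the widest H3K9ac regions and 1272 by median width. Genes with H3K27ac only (29) numbered 18, 6, 11, 801 and 56 under the same 5 alternatives, and genes with H3K9ac only (10406) 2757 among isolated genes and 2850 against the widest regions. Most of these alternatives use fewer genes or regions by construction. Leaving out chromosome 8 and the part of chromosome 15 moved none of these shares beyond its counting interval and no gene count by over 1.5 times. For 10 families, 70 of 100 recomputed counts stayed within 1.5 times. Mitochondrial ribosomal proteins changed side among isolated genes, at 2 of 12 (16.7%) against 16% of all. Within 1 kb of the start, where all acetylated genes stood at 10.7%, progenitor factors were at 31.6% and STAT5 targets at 40%. No paired analysis was possible because each mark has 1 library and no value comes from a test.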

Other observations

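The widest H3K27ac regions outside gene windows lay together. The widest of all, 8400 bp at chr8:129550051-129558450, had 5700 bp of H3K9ac and 7500 bp of H3K4me1, with no protein-coding gene within 5 kb. Regions of 5250 bp at chr8:129579451-129584700 and 5100 bp at chr8:129589801-129594900 followed it, with 3450 and 4800 bp of H3K9ac and 0 bp of H3K4me3. All of these are on disomic chromosome 8.

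The widest H3K27ac region without H3K9ac, 3450 bp at chr8:93550651-93554100, had 2700 bp of H3K4me1. The next, 2400 bp at chr16:46398601-46401000, was unlike the class around it: it had 0 bp of H3K4me1 and H3K4me2, 2400 bp under the H3K36me3/H4K16ac set and 400 bp of H3K27me3, and lay 220.4 kb from the nearest start. Of the 770 regions without H3K9ac, 29 (3.77%) overlapped none of the 6 other sets, against 0 of the 2598 with it.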
